A study of Mus musculus with 13 samples.

Results

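A library of diluted bulk cDNA from stimulated mouse B cells was compared with 9 libraries that each held the transcripts of 1 B cell. All 10 came from naive B cells that had been purified with magnetic beads from the spleens of wild type C57BL/6 mice aged 6 to 8 weeks. They were then cultured for 24 h with CpG, an unmethylated DNA oligonucleotide, which the labels give at 250 nM and the protocol text at 250 ng/mL. The bulk library was prepared in a tube from many cells and is labelled as diluted, whereas the single cells were isolated on a microfluidic chip and selected by their size in images, 5 of them small and 4 large. The libraries were chosen by their labels alone, and they are 10 of the 13 in the series. The others were a 10th cell, the large cell C3, which the study's authors had set aside, a bulk library from before stimulation (0 h) and a tube with spike-in RNA but no cell.

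CpG DNA binds TLR9, an endosomal receptor through which B cells detect bacterial and viral DNA. Signalling through MyD88 and NF-kB then drives a resting B cell to grow, to make ribosomes and mitochondria, and within about a day to enter the cell cycle. Such cells present antigen on MHC class II, secrete cytokines, and carry 1 antigen receptor each, built from 1 rearranged heavy and 1 rearranged light chain gene. A bulk sample averages over many such cells, so that a transcript made by few cells is present at a low level, whereas in a single cell it is present in full or not at all. A diluted bulk sample can serve as a control for the amplification. How close its amount of RNA came to that of single cells was not stated.

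The files gave counts per gene. Each count was divided by the library's total over all genes and expressed as counts per 1000000 counts (CPM). The bulk library held 1740862 counts and the 9 cells between 3311235 and 6311782, whereas the tube without a cell held 190. One count was thus worth more CPM in the bulk library. For a gene with no read there the limit was set at 3 counts of its total, or 1.72 CPM. The 95% counting interval of 0 counts reaches 2.12 CPM. Either limit covers counting only and not losses before sequencing, so a fold given as at least a value holds for counting alone. The mice, wells and number of cells behind the bulk library were not stated, nor how far it was diluted. There was 1 bulk library, so no difference had a replicate check and no test was run. The spread among the 9 cells is given beside the bulk values. It describes differences between cells and does not measure the error of the bulk library. Counting intervals are exact Poisson intervals at 95%, which cover only the error of counting, because PCR copies of a molecule are not independent. In the bulk sample fewer cells of a type and less RNA per cell cannot be told apart. The 0 h library was left out of the comparison, because it held low counts on 33107 of the 37991 genes in the table and its levels followed exon length across genes (Pearson r = 0.83, against 0.23 for the bulk library at 24 h).

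The first question was how much of a transcriptome the diluted sample held. The bulk library had reads on 5186 genes, and the cells on 4113 to 8656 with a median of 6593. With each cell thinned at random to the bulk library's total the cells still had reads on 3725 to 7959 genes. In number of genes the bulk library therefore lay within the range of single cells, and below the median of 5821 for the thinned cells. At 10 CPM or more it held 3788 genes, close to the cells' median of 3889. Its 10 most abundant genes took 8.22% of its counts, and those of the cells took 7.22% to 13.1%.

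Which genes were read depended on their level. Of the 126 genes at a mean of 1000 CPM or more in the cells, all had reads in the bulk library. This share was 93.0% of the 471 genes between 300 and 1000 CPM, 70.5% of the 1601 genes between 100 and 300 CPM, 49.98% of the 2665 genes between 30 and 100 CPM, and 38.5% of the 1972 genes between 10 and 30 CPM. The same shares were taken for each cell against the mean of the other 8, and in every class below 1000 CPM the bulk library lay below the cells' median and above the cell with the fewest genes. Between 100 and 300 CPM, for example, the cells ranged from 53.6% to 92.7% with a median of 81.0%. The cells were deeper, and the part of depth in these shares was not tested here beyond the thinned gene counts above.

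**Figure D1:**
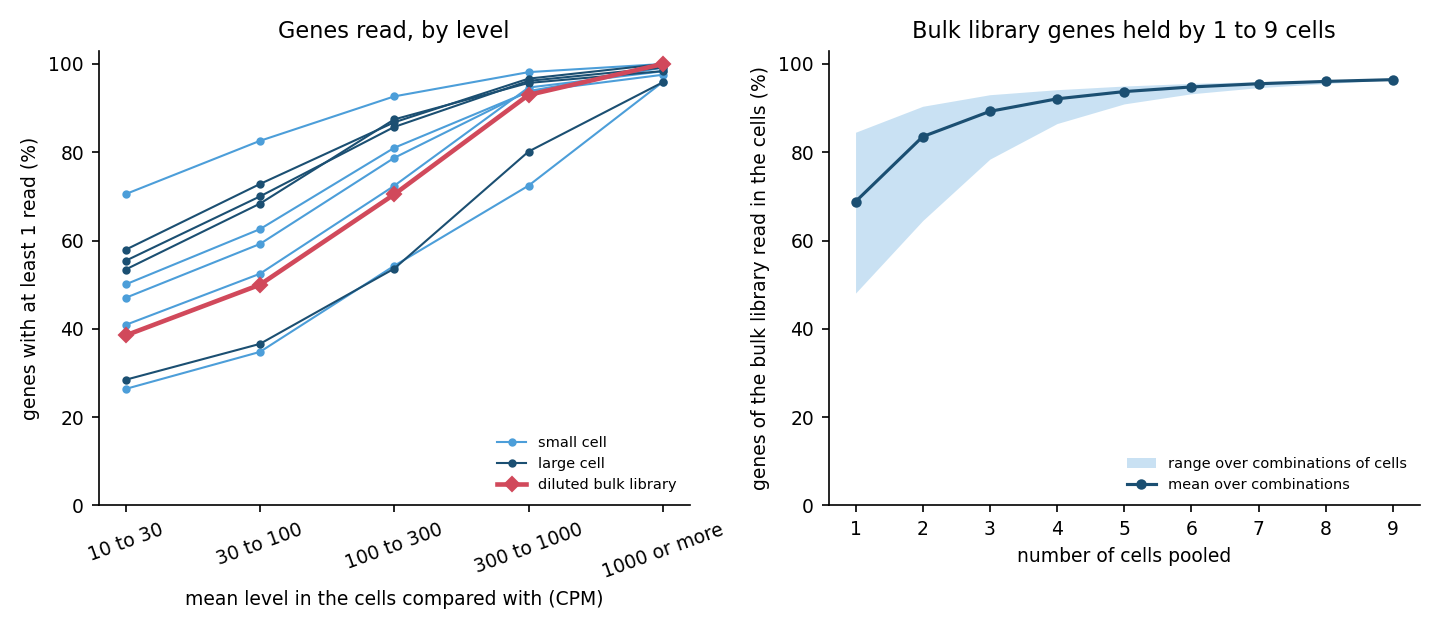
Left, the share of genes with at least 1 read (%, vertical axis) by the genes' mean level in CPM in the cells compared with (horizontal axis), for the bulk library against all 9 cells (red diamonds) and for each cell against the other 8 (light blue, small cells; dark blue, large cells). Right, the share of the bulk library's 5186 genes with a read in 1 to 9 pooled cells, as the mean (line) and range (band) over all combinations of cells. The bulk library runs among the single cells at every level, and 9 cells together hold 96.5% of its genes.

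Conversely, the cells held nearly all that the bulk library held. One cell had reads on 68.8% of the bulk library's genes on average, with a range of 48.1% to 84.5%. Pairs of cells had 83.5%, 5 cells 93.7%, and all 9 cells 96.5% or 5002 of the 5186 genes. The other 184 genes were read in the bulk library and in no cell, and they took 0.845% of its counts. Of these, 97 reached 10 CPM and 21 reached 100 CPM. Together the 9 cells had reads on 13107 genes.

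Across all 37991 genes the bulk library correlated with each cell at a Pearson r of 0.50 to 0.68 on the log2(CPM + 10) scale, and with the mean of the 9 cells at 0.72. Averaging over more cells raised the value from a mean of 0.61 for 1 cell to 0.70 for 5 cells and 0.72 for 8 cells. Each cell against the mean of the other 8 gave 0.57 to 0.80, so the bulk library's value lay inside the cells' own range. Genes are not independent replicates, and the many genes at 0 in all libraries are part of these values.

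To describe single genes, the bulk CPM was set against the mean CPM of the 9 cells as log2((bulk + 10)/(mean + 10)), over the 7344 genes that reached 10 CPM in either. A gene was counted as 4-fold higher or lower where this ratio reached 2 in size. By this rule 667 genes (9.08%) were higher in the bulk library and 2251 (30.7%) were lower. With the bulk values scaled up so that the median ratio became 0, the same counts were 1636 higher and 872 lower, and with the median in place of the mean over the cells they were 1504 and 540, so the excess of lower genes depends on the scale and on genes of few cells. The median ratio over all 7344 genes was -1.13, against which the medians of gene groups below have to be read. Of the genes considered, 3052 (41.6%) had no read in the bulk library, and these made up 81.7% of those counted as lower. Over the 1080 genes that had reads in all 10 libraries the median was 0.07.

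Single cells gave similar values by the same measure. Each cell set against the mean of the other 8 had 7.77% to 10.4% of genes 4-fold higher and 16.4% to 47.8% lower, with a median ratio of -1.91 to -0.23. Both of the bulk library's shares and its median lay inside these ranges. The lower genes were often genes of few cells: for 1225 of the 2251, more than 50% of the summed CPM over the cells came from 1 cell.

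A stricter count asked whether the bulk value lay outside all 9 cells. It was above every cell for 1044 genes (14.2%) and below every cell for 157 (2.14%). A gene can only lie below all cells if each of them has a read, which held for 1176 genes. Of these, 166 (14.1%) were above and 157 (13.4%) were below all cells, and 96 (8.16%) had no read in the bulk library at all. The cells with the fewest genes bear on the last counts. Without the small cell C7 the number below all cells was 241 and the number read in every cell but not in the bulk library was 156, and without the large cell G2 they were 234 and 148.

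**Figure D2:**
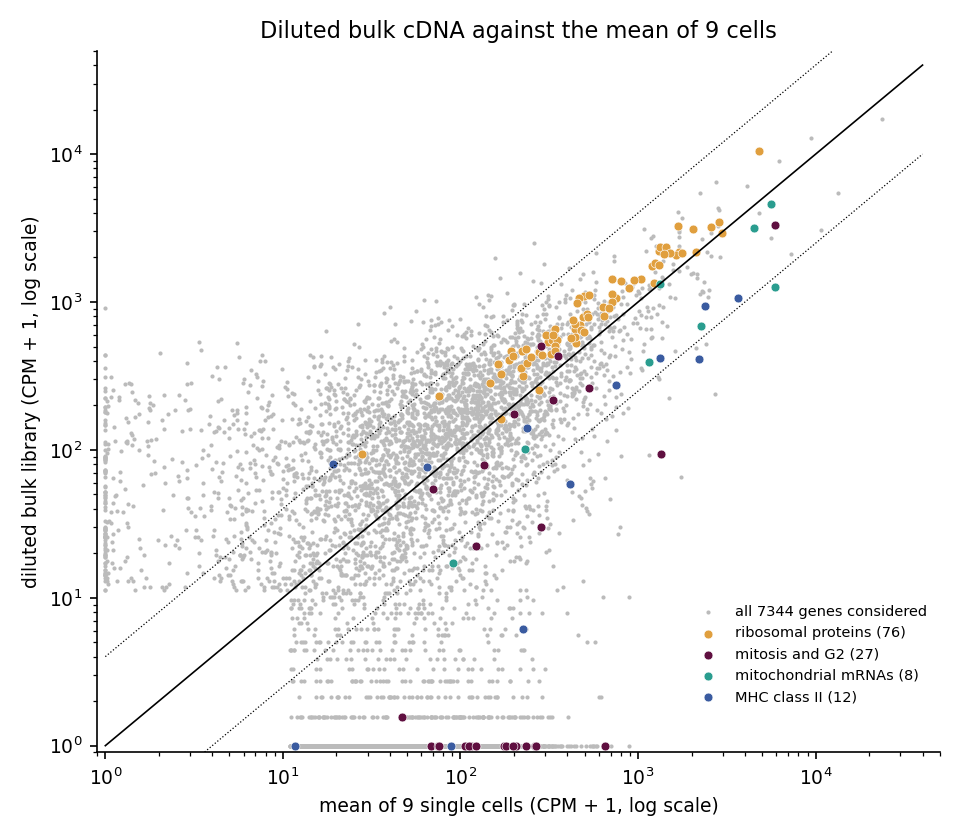
Level in the diluted bulk library (vertical axis) against the mean of the 9 cells (horizontal axis), both as CPM + 1 on log scales, for the 7344 genes considered (grey) and 4 gene lists (coloured). The solid line marks equal levels and the dotted lines a 4-fold difference in CPM + 1. Ribosomal protein genes lie along and above the line, most genes of mitosis lie below it or at 0 reads in the bulk library (bottom edge), and genes of no cell stand at the left edge.

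Among the most abundant transcripts, Actb (beta-actin) led in the bulk library and in the mean of the cells. It was at 17378 CPM in the bulk library and at 16031 to 32914 CPM in the cells with a median of 22846. Not every cell had it first, since Ighm exceeded it in A2 (26494 against 17993 CPM) and in C12 (37079 against 25103 CPM). Eef1a1, the elongation factor that brings tRNA to the ribosome, followed in the bulk library at 12834 CPM. The cells held 7081 to 12544 CPM of it, so that the bulk library was above all 9 by a small margin. Rpl4, a protein of the large ribosomal subunit, was at 10548 CPM in the bulk library against 2247 to 6960 CPM in the cells, 2.21-fold over their mean. Hspa8, the constitutive Hsc70 chaperone, stood at 5438 CPM and the highest cell at 5426 CPM. Fth1, the ferritin heavy chain, was at 6516 CPM and lay within the cells' range of 1017 to 8918 CPM.

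Ribosomal protein genes were the group in which the bulk library stood apart most evenly. The 77 genes of the list, which code for proteins of the cytosolic ribosome, summed to 91349 CPM in the bulk library and to 43938 to 77023 CPM in the cells. The 76 genes considered had reads in every library. For 73 the ratio was above 0. None was 4-fold higher or lower, against 9.08% and 30.7% of all genes considered. Above all 9 cells were 40 (52.6%), against 14.1% of all genes read in every cell. The median ratio was 0.62, and each cell against the other 8 gave -0.61 to 0.51. One of the cells also had 39 ribosomal protein genes above all other cells, so that a count of this size was not particular to the bulk library. The genes with the largest ratios were Rpl35 at 231 CPM against 47.2 to 118 CPM, Rpl23a at 93.1 CPM against 19.96 to 34.6 CPM, Rpl38 at 462 CPM against 143 to 269 CPM, and Rpl36a at 379 CPM against 95.1 to 238 CPM. Ribosomal proteins have many processed pseudogenes, and the sources do not state how reads shared with them were counted.

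Nuclear genes of the respiratory chain and ATP synthase had a median ratio of 0.53 over 38 genes considered, above the -1.08 to 0.26 of the cells, and 12 (31.6%) were above all cells, against 14.2% of all genes considered. Among them Ndufb7, a subunit of complex I, was at 311 CPM against 0 to 173 CPM, and Ndufs7, also of complex I, at 351 CPM against 0 to 304 CPM. Ndufv1, likewise a complex I subunit, had no read in the bulk library although 8 cells held it, at up to 574 CPM. Of these nuclear genes 2 of 38 (5.26%) were 4-fold lower and none was 4-fold higher, against 30.7% and 9.08% of all genes considered. Their summed level of 13856 CPM lay within that of the cells at 5335 to 13949 CPM.

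Translation factors summed to 30491 CPM, above the 19682 to 27123 CPM of the cells, yet their median ratio of 0.41 lay inside the cells' range of -1.56 to 0.47. Eif2s2, a subunit of the factor that carries the initiator tRNA, was at 595 CPM against 9.30 to 308 CPM. Single members lay on the other side. Pabpc1, the main poly(A)-binding protein, was at 309.6 CPM, below all cells at 746 to 2298 CPM. Eif4g1, the scaffold of the cap-binding complex, was at 17.8 CPM against 78.3 to 569 CPM, and Eif3f had no read in the bulk library while all 9 cells held it at up to 143 CPM.

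Nucleolar and ribosome assembly genes summed to 15084 CPM in the bulk library and to 2381 to 14900 CPM in the cells. Polr1a, the largest subunit of RNA polymerase I, was at 287 CPM against 0 to 159 CPM. Bop1 and Pes1, partners in maturation of the large subunit, had no read in the bulk library, and neither was read in all cells (6 and 7 cells). The list's median of 0.84 lay inside the cells' range of -4.05 to 1.00, and 5 of 19 genes (26.3%) were above all cells, against 14.2% of all genes. By 4-fold, 3 (15.8%) were lower and 2 (10.5%) higher, against 30.7% and 9.08% of all genes.

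The 14 heat shock and chaperone genes had a median ratio of 0.61, above the -2.97 to 0.57 of the cells. The list's sum of 20342 CPM lay within that of the cells at 2575 to 22374 CPM. Hspd1, the mitochondrial Hsp60, was at 1710 CPM against 0 to 979 CPM, and Hsph1, which acts with Hsp70, at 487 CPM against 0 to 478 CPM. Dnaja1, an Hsp40 partner of Hsp70, was at 6.89 CPM against 3.04 to 1082 CPM with a median of 275 CPM. The 22 proteasome core and CCT chaperonin genes had a median of 0.59, within the cells' range of -3.08 to 0.60, and 6 (27.3%, against 14.2% of all genes) were above all cells, among them Psma7 at 1043 CPM against 5.03 to 649 CPM and Psma3 at 998 CPM against 182 to 689 CPM. Glycolytic enzymes had a median of -0.36, which turned to 0.77 with the bulk values scaled up as above. Both phosphofructokinase genes named here were above all cells, Pfkp at 967 CPM against 0 to 904 CPM and Pfkl at 272 CPM against 0 to 259.7 CPM. Of the 13 ratios 7 were below 0. Among these, Hk2 was at 62.6 CPM against a cell mean of 158 CPM, and Pgam1 had no read in the bulk library and was held by 7 cells at up to 41.3 CPM.

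**Figure D3:**
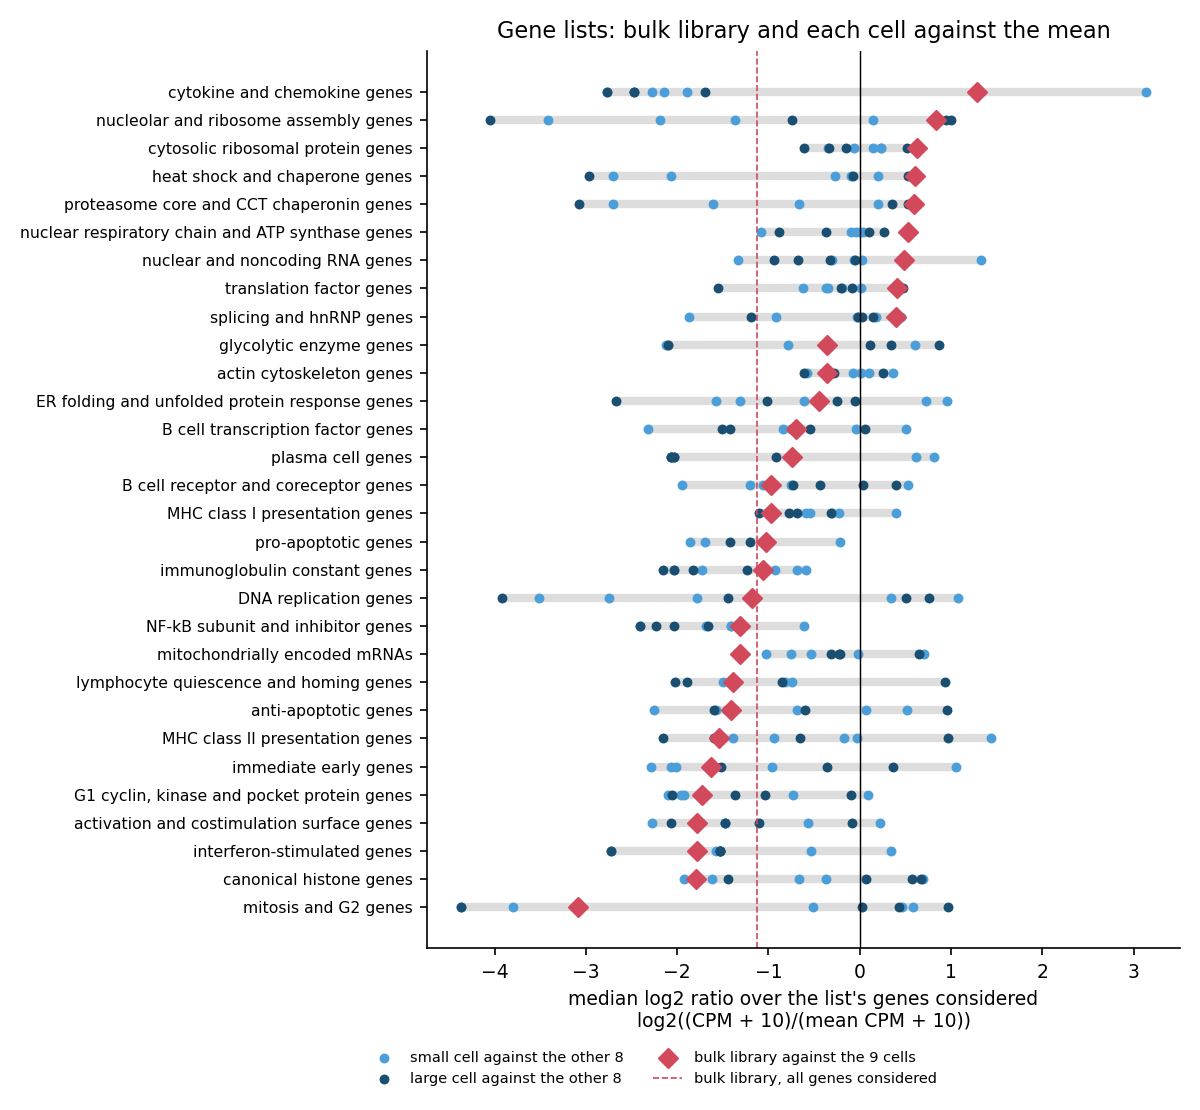
Median log2 ratio (horizontal axis) over the genes considered of 30 gene lists (vertical axis), for the bulk library against the 9 cells (red diamonds) and for each cell against the other 8 (light blue, small cells; dark blue, large cells; grey bar, their range). The dashed line marks the bulk library's median over all genes considered, -1.13. The bulk library lies outside all cells for 4 lists, above them for ribosomal proteins, the nuclear respiratory chain and heat shock genes and below them for mitochondrial mRNAs.

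Transcripts of the mitochondrial genome lay opposite to the nuclear genes of the same complexes. The 8 mRNAs considered had a median ratio of -1.32, below the -1.03 to 0.71 of every cell against the others, and 5 of the 8 were below all 9 cells, against 13.4% of all genes read in every cell. mt-Cytb, the cytochrome b of complex III, was at 1261 CPM against 3353 to 10003 CPM, and lower than the cell mean by 4.68-fold. mt-Nd5 and mt-Nd4, subunits of complex I, were at 690.5 CPM against 933 to 5579 CPM and at 394 CPM against 399 to 3020 CPM. mt-Nd3 was at 16.1 CPM against 59.0 to 135 CPM. mt-Co1, of complex IV, lay within the cells at 4622 CPM against 1151 to 13387 CPM. The summed level of all 13 mitochondrial mRNAs in the list, 11602 CPM, was above that of 1 cell, since the cells ranged from 9771 to 37833 CPM. mt-Rnr2, the large mitochondrial ribosomal RNA, was at 3064 CPM against 2620 to 21979 CPM. The neighbouring mitochondrial genes share a transcript, so these genes are not independent of each other.

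Malat1, a long noncoding RNA kept in the nucleus, was below all cells at 2114 CPM against 2879 to 19862 CPM. Gas5, the spliced host transcript of several small nucleolar RNAs, was above all cells at 1206 CPM against 321 to 1018 CPM. Among nuclear and noncoding RNAs as a list the sum and the median thus differed in direction, since the sum of 3404 CPM was below all cells and the median ratio of the 5 genes considered was 0.48. Neat1, which forms paraspeckles, had no read in the bulk library and was read in 4 cells at up to 90.3 CPM.

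**Figure D4:**
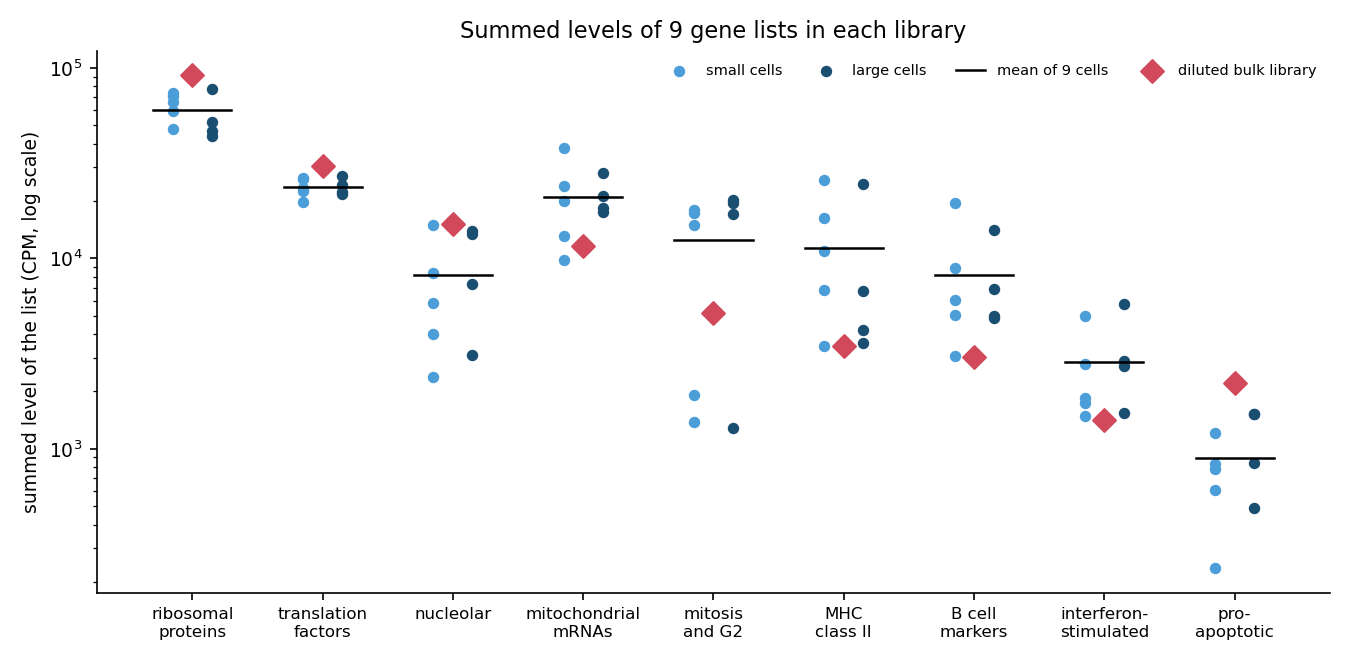
Summed CPM (vertical axis, log scale) of 9 gene lists (horizontal axis) in the bulk library (red diamonds), the small cells (light blue) and the large cells (dark blue), with the mean of the 9 cells as a bar. The bulk library is above all cells for ribosomal proteins, translation factors, nucleolar and pro-apoptotic genes, and below all cells for MHC class II, B cell marker and interferon-stimulated genes. For pro-apoptotic genes this rests on Bcl2l11. The margin is small for nucleolar genes (15084 CPM against 14900 CPM in the highest cell). It is also small for MHC class II (3460 against 3464 CPM in the lowest cell) and B cell markers (3042 against 3077 CPM).

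Among the 30 lists of gene function, genes of mitosis and G2 had the lowest median, -3.08 over 27 genes. Of these, 19 (70.4%) were 4-fold lower and none was higher, against 30.7% and 9.08% of all genes considered. In the bulk library 15 of the 27 had no read, against 41.6% of all genes considered. Mki67, the Ki-67 proliferation antigen, had none, and 8 cells held it at up to 2190 CPM with a median of 519.8 CPM over the 9. Ccnb1 (cyclin B1), Tpx2, a spindle assembly factor, and Cenpe, a kinetochore motor, had no read either, and were held by 5 or 6 cells at up to 1047, 840 and 912 CPM. Tubb5, a beta-tubulin that is also abundant outside mitosis, made up most of the list's 5165 CPM at 3307 CPM. The cells split by the summed level of this list. C12, C7 and G2 were at 1908, 1376 and 1293 CPM, and the other 6 cells at 15033 to 20299 CPM, so that the bulk library lay between them. Correspondingly the bulk median ratio of -3.08 lay inside the cells' range of -4.36 to 0.97. Only those 3 cells had a lower median against the others than the bulk library.

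DNA replication genes were mixed. Their median ratio of -1.18 was close to that of all genes. Of 31 genes 9 (29.0%) were 4-fold lower and 2 (6.45%) were higher, against 30.7% and 9.08% of all genes considered. Rrm2, the inducible subunit of ribonucleotide reductase, had the highest cell mean of all genes without a read in the bulk library. It was held by 6 cells at up to 2808 CPM, with a mean of 886.5 CPM, which puts the bulk library at least 514-fold lower than the mean if 3 counts are taken as its limit. Cdc45 and Cdc6, which act at replication origins, and Tk1, thymidine kinase, also had no read in the bulk library. Against these, Rfc3, a subunit of the clamp loader, was at 349 CPM in the bulk library and at 0 to 16.8 CPM in the cells (Rfc3 was singled out after its values were seen). Of the cell cycle inhibitors, Cdkn1a (p21) was above all cells at 102 CPM against 0 to 43.8 CPM, and Cdkn1b (p27) was below all cells with 1 count in the bulk library, or 0.574 CPM, against 8.37 to 162 CPM.

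The labelled cell type was checked on 11 B cell markers, all of which were read in the cells. The bulk library had reads on 6 of them, so that 5 of 11 had none against 41.6% of all genes considered. Of their ratios 8 were below 0 and 3 above. Above all 9 cells was 1 marker (9.09%) and below all were 2, against 14.2% and 2.14% of all genes considered. The markers named below are Cd79a and the 5 without a read, so the 3 with ratios above 0 are not among them. The bulk library had a summed level of 3042 CPM, just below the lowest cell at 3077 CPM and below the highest at 19482 CPM. It held Cd79a, a signalling chain of the antigen receptor, at 222 CPM against 717 to 3911 CPM, below all cells. Ebf1, a transcription factor of B cell identity, had no read although 8 cells held it at up to 1120 CPM with a median of 569 CPM. Fcrla, an Fc receptor-like protein of B cells, had none either and was held by every cell at 0.317 to 927 CPM. Cd22 and Cr2, a lectin and a complement receptor that tune the antigen receptor, had none, with 8 and 6 cells holding them, and Fcer2a (CD23) had none, with 2 cells. From the list of B cell transcription factors, Ikzf3 (Aiolos) had no read while every cell held it at 4.91 to 955.5 CPM. In that list 3 of 19 genes considered had no read in the bulk library, against 41.6% of all genes considered. By 4-fold, 36.8% were lower and 10.5% higher, against 30.7% and 9.08% of all genes, and 6 of the 19 ratios were above 0.

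MHC class II presentation genes summed to 3460 CPM in the bulk library, and the lowest cell was at 3464 CPM and the highest at 25771 CPM. Of 12 genes considered 4 (33.3%) were 4-fold lower, close to the 30.7% of all genes. None was higher, against 9.08% of all genes, and 10 of 12 ratios were below 0. H2-Ab1, the beta chain of I-A, was at 413 CPM against 562 to 5326 CPM, below all cells. Cd74, the invariant chain, was at 1062 CPM against 916 to 10018 CPM with a median of 2492 CPM. H2-DMb2 and H2-Ob, chains of the peptide-loading molecules DM and DO, were at 58.0 CPM against 35.7 to 949 CPM and at 5.17 CPM against 0 to 770 CPM. The median ratio of -1.55 was below that of all genes but inside the cells' range of -2.16 to 1.44. Class I presentation genes were at 7498 CPM, within the cells at 4117 to 12595 CPM.

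Of 15 activation and costimulation genes considered, 7 (46.7%) were 4-fold lower and none was higher, against 30.7% and 9.08% of all genes. No read in the bulk library was found for 7 (46.7%), near the 41.6% of all genes considered. Cd38, an ectoenzyme of the cell surface, was at 9.19 CPM with 16 counts. The cells ranged from 0 to 2337 CPM with a mean of 888 CPM, 96.7-fold more (counting interval of the bulk value, 59.5-fold to 169-fold). Cd274 (PD-L1), Icam1 and Fas had no read in the bulk library and were held by 7, 2 and 4 cells. Among 12 immediate early genes 8 had no read in the bulk library, against 41.6% of all genes, including Egr1, which reached 1749 CPM in a cell, and Klf6, which every cell held at 18.4 to 525 CPM. Myc, the growth regulator, was above all cells at 1148 CPM against 0 to 723 CPM. In the NF-kB list 5 of 17 genes had no read, against 41.6% of all genes, and 7 ratios were above 0. Its member Nfkbie (IkB epsilon) had 1 count and was read in 4 cells, at up to 1544 CPM. Tnfaip3 (A20) and Traf2 had no read in the bulk library and were held by 3 and 6 cells. By summed level the bulk library lay within the cells' range for the activation, immediate early and NF-kB lists, above 1, 8 and 6 of the 9 cells. The medians of these lists were -1.78, -1.63 and -1.31, each within the cells' range, and with the median in place of the mean over the cells they turned to 0.17, 1.19 and 1.87.

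The 20 interferon-stimulated genes summed to 1423 CPM, below all cells at 1492 to 5776 CPM. Of 8 considered, 5 had no read in the bulk library, against 41.6% of all genes, among them Irf1 and Igtp. Bst2 (tetherin) was above all cells at 138 CPM against 0 to 25.9 CPM. Bst2 also stands among the dendritic cell markers, since plasmacytoid cells carry it.

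Among the 30 lists of gene function, cytokine and chemokine genes had the highest median at the minimum of 10 CPM, 1.29 over 11 genes. By 4-fold, 3 (27.3%) were higher and 3 (27.3%) lower, against 9.08% and 30.7% of all genes considered. The cells' own medians ran from -2.77 to 3.13, and with C3 kept as a 10th cell the bulk median was -0.83. The rank depends on the filter, since a gene such as Tnf reached 10 CPM only through the bulk library. With a minimum of 1 CPM the median was 0.55, below the 0.79 of nucleolar genes. Against the small cells alone it was 0.55, and against the large cells alone 2.49. Il6 was at 290.1 CPM in the bulk library with 505 counts and was read in 4 cells at up to 130 CPM. Tnf was at 68.4 CPM with 119 counts and was read in no cell, so that the bulk level was at least 116-fold over the cells' mean limit of 0.588 CPM (3 counts in each cell). Conversely Il10, which restrains immune responses, and Il12a, a subunit of interleukin-12, had no read in the bulk library and were each held by 5 cells at up to 305 and 477 CPM.

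Genes of cell death and survival also differed in both directions. Bcl2l11 (Bim), which triggers mitochondrial apoptosis, was at 922 CPM against 0 to 158 CPM in the cells, and Bad, another BH3-only protein, at 146 CPM against 0 to 64.1 CPM. Casp8, an initiator caspase, was at 0 reads while every cell held it at 23.4 to 517.5 CPM. The 19 pro-apoptotic genes of the list summed to 2228 CPM, above all cells at 236 to 1530 CPM. Bcl2l11 alone gave 922 CPM of this sum. Without it the bulk sum would lie below that of G2, which was at 1530 CPM with no read of Bcl2l11. The median ratio of -1.03 over the 13 considered was near that of all genes, and it turned to 0.29 against the large cells alone. Of the survival genes, Bcl2 was above all cells at 433 CPM against 0 to 65.5 CPM, whereas Mcl1 was at 72.95 CPM against 28.5 to 1105 CPM and Cflar (c-FLIP), which blocks caspase 8, at 5.17 CPM against 3.02 to 323 CPM.

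**Figure D5:**
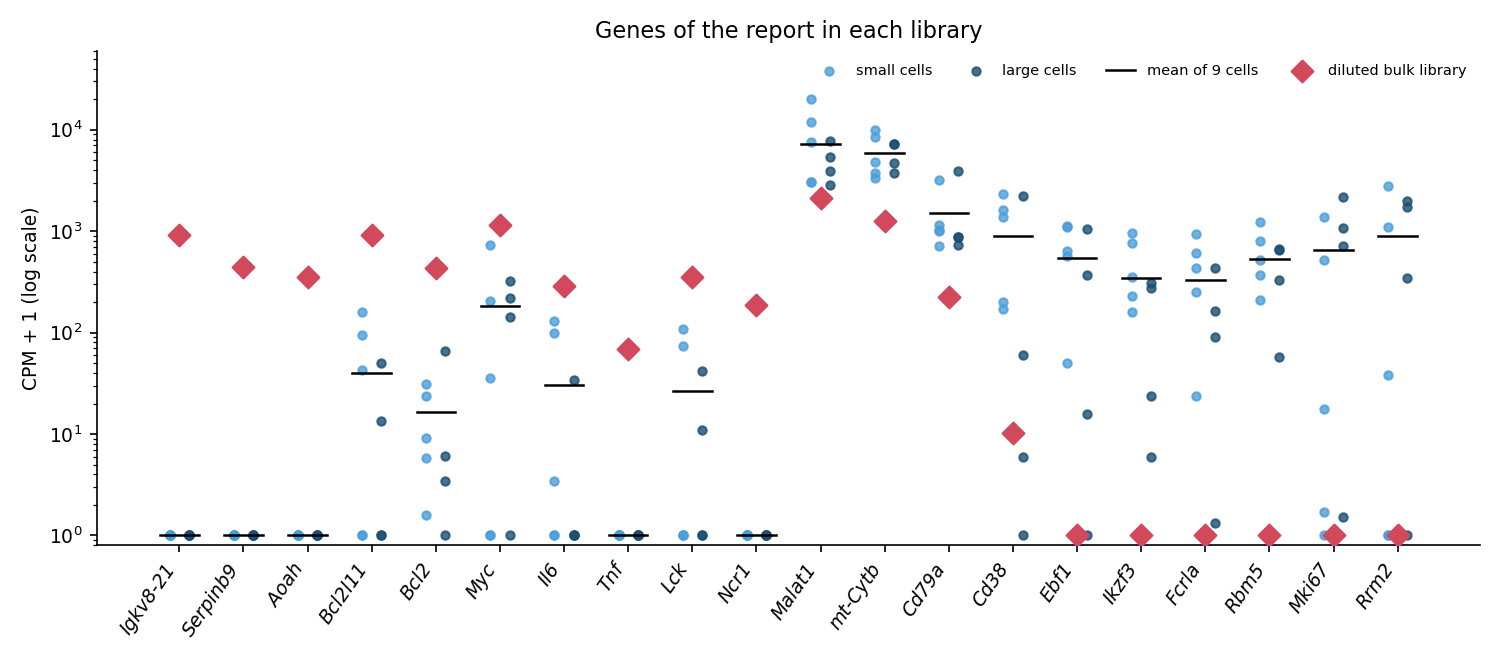
Level of 20 genes (horizontal axis) as CPM + 1 (vertical axis, log scale) in the bulk library (red diamonds), the small cells (light blue) and the large cells (dark blue), with the mean of the 9 cells as a bar; points at the bottom edge are libraries with no read. From Igkv8-21 to Ncr1 the bulk library is above all cells, from Malat1 to Cd79a it is below all cells, and the last 6 genes have no read in the bulk library.

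Each gene segment for a variable (V) domain is used by a fraction of B cells, and a cell normally transcribes 1 productive light chain. In each of the 8 cells with kappa V reads, 2 to 4 of the 59 kappa V genes had reads, and in 7 of them 1 gene took 95.3% to 99.8% of these reads. It was Igkv11-106 in A2 (15640 CPM), Igkv1-99 in C12 and G2 (2611 and 3749 CPM), Igkv17-127 in C7 and F7 (573 and 1714 CPM), Igkv4-68 in C1 and Igkv8-27 in E3. In H1 the reads were shared by Igkv17-121 and Igkv4-72, at 906 and 803 CPM. The large cell E1 had no kappa V read, 12387 CPM of lambda V genes, mainly Iglv1 at 9842 CPM, and Igkc at 0.317 CPM.

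The bulk library had reads on 8 kappa V genes, more than any cell, at a sum of 1145 CPM against a median of 1721 CPM in the cells. Igkv8-21 took 79.3% of these reads at 908 CPM and was read in no cell, the largest ratio of all genes. Of the other 7, Igkv12-46, Igkv6-32, Igkv3-10 and Igkv4-57 were also read in no cell, at 40.2, 13.2, 4.02 and 2.30 CPM. Igkv1-99, dominant in 2 cells, had no read in the bulk library, and Igkv11-106, at 15640 CPM in A2, was at 64.3 CPM. Lambda V genes stood at 2280 CPM, above 8 of the 9 cells and below E1. None of the 27 heavy chain V genes matched to a name had a read in the bulk library, and 4 cells had any, at up to 65.0 CPM. V genes resemble each other closely, and reads may have been split or lost between them.

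Of the constant region genes, Ighm (IgM heavy chain) was at 5451 CPM against 4353 to 37079 CPM with a median of 9367 CPM, Igkc (kappa) at 2711 CPM against 0.317 to 23496 CPM, and Iglc2 (lambda) at 922 CPM against 322 to 3796 CPM. Ighg2b (IgG2b) was at 692 CPM against 39.9 to 3796 CPM, and Ighg2c at 148 CPM against 0 to 234 CPM. Ighg3 and Jchain, the joining chain of secreted IgM, had no read in the bulk library, and they were held by 5 cells and 1 cell. Ighg1 and Ighe had no read there either. All constant genes read in the bulk library lay within the cells' range.

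The genes furthest above all cells had no common list. After Igkv8-21 came Galnt4, which starts mucin-type sugar chains, at 439 CPM, and Serpinb9, an inhibitor of granzyme B, at 438 CPM, both with no read in any cell. C87436, Evi5, N4bp1 and Brwd3 followed at 535, 452, 476 and 529.6 CPM, and in the cells they reached 19.02, 9.22, 21.3 and 40.5 CPM. Aoah, an enzyme that detoxifies bacterial lipopolysaccharide, was at 354 CPM and Zik1, a zinc finger protein, at 311 CPM, both read in no cell. Mtm1, a lipid phosphatase, Adal, Mindy3, B3gntl1, Ctso, a lysosomal protease, and Dhodh, of pyrimidine synthesis, completed the 15 with the largest ratios, at 278 to 422 CPM against at most 29.2 CPM in a cell. Of the 667 genes that were 4-fold higher, 53 were read in no cell, 143 in 1 or 2 cells, and 19 in all 9 cells.

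The genes furthest below all cells were held by each of them. Srsf11, a splicing regulator, had 2 counts in the bulk library (1.15 CPM) and 132 to 1710 CPM in the cells, their mean being 537-fold higher with a counting interval of 149-fold to 4433-fold. Rbm5, also of splicing, had no read against 56.6 to 1234 CPM, at least 311-fold less than the mean. Macf1, a giant cytoskeletal linker, had 16 counts against 36.4 to 2752 CPM. Klhl6, which acts in B cell receptor signalling, Coro1b, an actin regulator, Acot9, Cers2, a ceramide synthase, Etfb, of mitochondrial electron transfer, Dock2, a Rac activator of lymphocyte migration, Fam172a and Arid4a had no read in the bulk library, and their highest cells reached 559 to 1967 CPM. Among genes without bulk reads that not all cells held, Dnase1l3, a secreted nuclease, and Nqo1, a quinone reductase, had cell means of 588 and 575 CPM and were each held by 7 cells.

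Markers of other cell types were mostly absent from the bulk library. Of 15 T cell markers only Lck was read, at 351 CPM against 0 to 107 CPM in the cells, 4 of which held it, while the others, Cd3e among them, were at 0 reads in bulk and cells. Of 10 NK cell markers, Ncr1 was at 186 CPM (323 counts) and Klrd1 at 26.4 CPM (46 counts), and no cell held either. Of 14 monocyte and macrophage markers, Adgre1 (F4/80) was at 636 CPM and Cd68 at 87.9 CPM, and they were also read in 4 cells and 1 cell, at up to 1860 and 220 CPM. Car2, an erythroid marker, was at 88.5 CPM. The markers of neutrophils, platelets, mast cells and stroma were all at 0 reads in the bulk library. The part of other cells in these values was not tested.

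The bulk library and the cells also differed on the sex chromosomes. The Y-linked genes Ddx3y, Eif2s3y and Uty had no read in the bulk library, and in the cells their levels were 0 to 828.5, 0 to 447 and 0 to 492.9 CPM. Over all 17 Y-linked genes in the table the cells had 8 to 4543 counts each and the bulk library 0. Xist, which is transcribed from the inactive X chromosome of females, had no read in the bulk library or in any cell. At mean levels of 265 and 173 CPM in the cells, Ddx3y and Eif2s3y were 2 of the 506 genes at 100 CPM or more that had no read in the bulk library. Whether the bulk library came from the same mice as the cells was not stated.

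The ratio also varied with the length of a gene's exons as annotated in GENCODE. In the 5 classes of equal size from short to long, its median was -0.16, -0.98, -1.21, -1.39 and -1.56 over all genes considered with a length, and the share with no read in the bulk library was 29.6% in the shortest and 47.9% in the longest class. Over the genes with reads in all 10 libraries the medians were 0.21, 0.28, 0.10, -0.14 and -0.36. The part of length in the ratios of single genes and lists was not tested.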

How the data were processed

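Splenic naive B cells were stimulated with CpG, and cells were captured on a Fluidigm C1 chip, where cDNA was made and amplified with SMARTer chemistry. A bulk control was prepared in a tube. Libraries were made with Nextera XT and sequenced on an Illumina HiSeq. Per the study's methods, reads were aligned with STAR to the mouse genome (NCBI m37) and the authors counted reads across exons. The deposited table holds these whole-number counts for 37991 genes. Another 26 per-sample columns of adjusted values and the columns of the authors' own comparisons, which hold scores of differences, were not used. The strand setting and the treatment of multiply mapped reads are not given in the sources used here.

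Counts per 1000000 (CPM) were computed over all genes, with 10 CPM added before the log2 ratio and a minimum of 10 CPM in the bulk library or in the cell mean. Groups came from the sample labels. Of the gene identifiers 32919 matched a symbol of GENCODE release M21. Values were computed with pandas 2.3.3 and numpy 2.4.6 under Python 3.11.15, intervals with scipy 1.17.1, and figures with matplotlib 3.10.9. The counting of calls was tested on simulated data. The cells compared held 3311235 to 6311782 counts and the bulk library 1740862. Where a library had no read, the limit was set at 3 counts.

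The libraries compared and the 41 gene lists were chosen with earlier results of these data known. Genes named in the text were the 15 with the largest ratios above all cells, the 15 with the lowest below all cells, the 5 with the highest cell mean and no bulk read, up to 4 members of each list by size of ratio, all immunoglobulin constant genes, markers of other cells at 10 CPM or more in the bulk library, and the 10 most abundant genes of each kind. Some genes that this rule picked are not reported here. Cd74, Cd3e, Rfc3, Fcer2a, Xist and the light chain V genes were named after their values were seen where this rule had not picked them. Alternatives were other constants, minimums, averages and scalings, thinning to equal depth, cells of 1 size class, and leaving out or adding cells.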

Additional observations from a re-analysis of the deposited data

Results flagged for a closer look

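Of 37 measures looked at over the 9 cells (library measures and summed levels of gene lists), 2 had a cell set apart from the other 8, in both cases the large cell G2, where chance sets about 1 in 20 apart. Its heat shock and chaperone genes summed to 2575 CPM, the lowest of the cells, with a gap of 0.499 of the whole range. Its DNA replication genes summed to 111 CPM, also the lowest, with a gap of 0.595 of the range on that log2 scale. Both gaps are shares of the log2 range and not of the range in CPM. G2 was also one of the cells with the fewest genes (4430) and had 4.11% of its counts on mitochondrial genes. The bulk library before stimulation, which entered no comparison, had reads on 33107 genes, against 148 in the tube without a cell.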

How the results depend on the processing

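The analysis was repeated under 22 settings, 1 of which was chosen after seeing the data (leaving out the 2 cells with fewer than 5000 genes, C7 and G2). The 667 higher genes became 234 with a constant of 50 CPM, 1504 with the median over the cells and 1636 with rescaling by the median ratio. The 2251 lower genes became 353, 540 and 872 there, and 3658 with a constant of 1 CPM. Genes above all cells numbered 1657 against large cells only and 2209 after rescaling, in place of 1044. The 157 genes below all cells became 357 against small cells, 558 against large cells, 78 with C3 kept and 446 without C7 and G2. The 96 genes read in every cell but not in the bulk library became 225, 348, 47 and 303 there, and 62 with cells thinned. Leaving out each cell in turn gave 638 to 713, 2193 to 2276, 1112 to 1146, 162 to 241, and 96 to 156 for these 5 counts. The correlation stayed between 0.69 and 0.74. With fewer cells or a lower depth the counts of genes outside all cells, or read in all, change by construction, and other causes were not tested.

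Of 676 list medians recomputed 24 changed sign, 18 of them from lists whose median was at least 0.5 in size. With the median over the cells, the median of all genes became 0.98, and the lists became 1.19 (immediate early), 1.87 (NF-kB), 0.17 (activation), 0.17 (B cell transcription factors), 2.77 (plasma cell), 1.25 (G1 cyclins), 2.78 (pro-apoptotic) and 0.55 (anti-apoptotic), and the gene Nfkbie 0.081. With a minimum of 50 CPM, NF-kB became 0.41 and pro-apoptotic genes 1.44, which against large cells only were at 0.29. With C3 kept, cytokines became -0.83. After rescaling, immunoglobulin constant genes became 0.068, B cell receptor genes 0.15, MHC class I 0.15, B cell transcription factors 0.43, plasma cell genes 0.38 and pro-apoptotic genes 0.10. The other 6 changes of sign were in glycolytic enzymes (0.28 with the median over the cells, 0.034 against small cells only, 0.77 after rescaling), ER folding genes (0.020 against large cells only, 0.68 after rescaling) and actin cytoskeleton genes (0.77 after rescaling). The ribosomal protein list kept its direction at 0.57 to 1.75, mitochondrial mRNAs at -1.57 to -0.19, MHC class II at -1.91 to -0.42 and mitosis at -6.23 to -1.64. No paired analysis was possible because there was 1 bulk library and replicate numbers do not tie it to a cell.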

Other observations

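The light chain V reads of the bulk library, kappa and lambda together, were at 3426 CPM, and those of the cells at 313 to 16049 CPM. A bulk value above all 5 small cells and below all 4 large cells was found for 3 of the 7344 genes considered, Ergic3, Adcy7 and Ccdc82, at 175, 8.62 and 2.30 CPM in the bulk library, which were picked out after their values were seen. No gene had the reverse.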
